A study of Mus musculus with 3 samples.

Results

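Transcripts of 8 genes for water, potassium, bicarbonate and sodium transport were counted in single cells of the mouse subventricular zone, the neurogenic layer along the lateral ventricle. The genes were found by symbol in the deposited gene lists and are 8 of the 27998 genes in each matrix. They are the water channel Aqp4, the inwardly rectifying potassium channels Kcnj10 and Kcnj16, the bicarbonate cotransporter Slc4a4, the sodium pump beta subunits Atp1b1 and Atp1b2, and the pump regulators Fxyd1 and Fxyd6. No measured value was used to choose them, but they were chosen with earlier results of these data known. The question followed here is which subunit each cell type carried.

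The sodium pump moves sodium out of a cell and potassium in, and each pump joins a catalytic alpha subunit to a beta subunit that brings it to the membrane. A small FXYD protein can bind the pump and tune its affinity. Glia that line fluid or blood vessels are known for clearing potassium through Kir4.1 (Kcnj10), alone or with Kir5.1 (Kcnj16), and for passing water through aquaporin-4 at endfeet and ependymal surfaces. The cotransporter NBCe1 (Slc4a4) carries sodium with bicarbonate and is known for pH control by astrocytes.

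Cells came from adult mice (n = 5 per the labels) that joined aSMACreERt2::Rosa26-tdTomato to the Sox2 GFP allele of B6;129S-Sox2tm2Hoch/J, on a mixed background of C57/Bl6(3/4) and 129S1SvlmJ(1/4). The lateral wall of the lateral ventricles was taken, and transcripts were counted from their 3′ ends (10x Genomics v2). All mice thus carried a tamoxifen-dependent Cre under the smooth muscle actin (Acta2) promoter, a tdTomato reporter and GFP at Sox2, and all sorted cells were GFP-positive. The tdTomato-positive library was made from 1200 sorted cells, and tdTomato-negative libraries 1 and 2 from 1200 and 6000. The mark depends on where the Acta2 promoter drives Cre, and the tdTomato-positive gate has 1 library, so it has no replicate. The labels do not say that the libraries came from separate animals, so every p-value is limited to these libraries, whose spread may be technical. The fits of classes and gates also share information on spread between genes. Very small p-values there rest mostly on that shared estimate, not on the few sums of the gene itself.

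The libraries held 314 (tdTomato-positive), 259 and 1127 (tdTomato-negative 1 and 2) barcodes with 788344, 929997 and 3593633 UMIs (unique molecular identifiers, 1 per captured transcript). Of these, 252, 256 and 1121 cells passed a minimum of 300 genes and a maximum of 25% mitochondrial UMIs. Their median mitochondrial share was 8.27% in the tdTomato-positive library, against 3.22% and 3.38% in the tdTomato-negative libraries, and 3 barcodes were found in more than 1 library. Cells were clustered without the 8 genes. Ependymal-like cells numbered 177 (tdTomato-positive), 12 and 46 (tdTomato-negative 1 and 2), and astrocyte-like cells 16 (tdTomato-positive), 43 and 221 (tdTomato-negative 1 and 2). Of the astrocyte-like cells, 204 lay in a cluster led by Slc7a10 and 76 in a cluster led by Gfap, and 14 of the 16 in the tdTomato-positive library lay in the Slc7a10-led one. Neuroblast-like, transit-amplifying-like and oligodendrocyte precursor-like cells and 2 clusters called Islr2-led and Prokr2-led came almost wholly from the tdTomato-negative libraries. Meg3 ranked above Islr2 in the Islr2-led cluster, which the marker rule left unnamed, and Islr2 was also among the leading genes of neuroblast-like cells. The marker rule named the Prokr2-led cluster neuron-like, on 1 marker among its leading genes, and that name is not used here. The 12 ependymal markers summed to 17329 to 19163 CPM (UMIs of a gene per 1e+06 UMIs in all cells of a class and library taken as 1 sum) in ependymal-like cells, against 264 to 1618 CPM in astrocyte-like cells. The highest of these astrocyte-like sums was that of the tdTomato-positive library, with 2 of the 12 markers at 0. The 17 astrocyte markers summed to 19205 to 21621 CPM in astrocyte-like cells and to 859 to 1068 CPM in ependymal-like cells, where between 1 and 6 of them were at 0.

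Promoter sequence for 6 of the 8 genes was found in RefSeq (GRCm38.p6), with 10 start sites in all. The sequences printed are the 250 bases before the start of Fxyd1, Fxyd6 and Kcnj10. Fxyd1 and Fxyd6 are the pair of pump regulators whose shares lay far apart in ependymal-like and neuroblast-like cells. Kcnj10 was shared by ependymal-like, astrocyte-like and oligodendrocyte-like cells. The sequences are written 5′ to 3′ along the strand of the gene, and capitals mark a match to a searched motif. Fxyd1 is taken from chr7:31054854-31055103 (minus strand), Fxyd6 from chr9:45369935-45370184 (plus strand) and Kcnj10 from chr1:172340960-172341209 (plus strand). The start used for Fxyd1 is the RefSeq one and lies inside the annotated span of the gene, downstream of its outermost 5′ end.
Fxyd1: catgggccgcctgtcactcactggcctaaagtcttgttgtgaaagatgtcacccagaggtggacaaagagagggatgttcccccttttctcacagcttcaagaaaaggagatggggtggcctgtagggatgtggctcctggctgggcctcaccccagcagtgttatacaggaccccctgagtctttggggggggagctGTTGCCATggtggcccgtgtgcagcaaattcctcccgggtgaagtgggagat
Fxyd6: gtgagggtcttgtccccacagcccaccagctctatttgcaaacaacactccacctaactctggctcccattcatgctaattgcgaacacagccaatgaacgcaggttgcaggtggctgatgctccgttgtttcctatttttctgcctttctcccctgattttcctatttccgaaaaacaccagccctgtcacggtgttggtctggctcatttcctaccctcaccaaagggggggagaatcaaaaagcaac
Kcnj10: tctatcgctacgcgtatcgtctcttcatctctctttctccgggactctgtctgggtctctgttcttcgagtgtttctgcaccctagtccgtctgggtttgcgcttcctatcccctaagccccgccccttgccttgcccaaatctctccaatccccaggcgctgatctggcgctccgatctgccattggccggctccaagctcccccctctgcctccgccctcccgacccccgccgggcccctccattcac
Motifs searched on both strands were GTTGCCAT (the X-box core bound by RFX factors), TTGGCA (a nuclear factor I site), ACAATG (a SOX core) and TATAAA (the TATA box), and they do not overlap one another in these windows. GTTGCCAT was found in the Fxyd1 window with its first base 52 bases before the start, and 1.12% of 32851 RefSeq promoter windows of the same length held it. The other 3 motifs were held by 12.3%, 10.7% and 12.4% of windows. The Fxyd6 and Kcnj10 windows held none of the 4. The windows of all 10 start sites were searched, while these shares are per window. Among those not printed, Kcnj16 windows held TTGGCA 166 and 248 bases and TATAAA 133 bases before a start. The rest held no match. The motifs were chosen after the sequences were seen, and a match is a description only.

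Aqp4 (ENSMUSG00000024411), the aquaporin of glial membranes, was a gene of ependymal-like and astrocyte-like cells. In ependymal-like cells it stood at 598 CPM (tdTomato-positive), 489 and 542 CPM (tdTomato-negative 1 and 2), and in astrocyte-like cells at 902, 664 and 585 CPM in the same libraries. The ranges of both classes overlapped. Of the 29 Aqp4 UMIs behind the highest value, 18 came from 2 cells of the Gfap-led cluster. In the edgeR quasi-likelihood test on sums per library and class, the log2 difference of ependymal-like from astrocyte-like cells was −0.33 ± 0.21 (SE, 95% interval −0.74 to 0.08, Benjamini-Hochberg adjusted p = 0.259) and was not called.

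Aqp4 was low in the neuronal lineage. Neuroblast-like cells held 8.03 and 8.67 CPM in tdTomato-negative libraries 1 and 2 and transit-amplifying-like cells 8.12 and 7.53 CPM, far under every ependymal-like or astrocyte-like sum. Aqp4 was 6.15 ± 0.40 higher on the log2 scale in astrocyte-like than in neuroblast-like cells (edgeR adjusted p = 4.14e-50) and 5.82 ± 0.43 higher in ependymal-like than in neuroblast-like cells (edgeR adjusted p = 3.76e-39). At least 1 Aqp4 UMI was seen in 76.3%, 83.3% and 78.3% of ependymal-like cells and in 62.5%, 58.1% and 57.9% of astrocyte-like cells. The share in neuroblast-like cells, a class not known to use the gene, was 2.56% and 2.20%, at median depths of 3620 UMIs (ependymal-like), 2368 (astrocyte-like) and 2466 (neuroblast-like). After each cell was thinned to 1000 UMIs, the ependymal-like shares were 40.0%, 54.5% and 41.3% and the astrocyte-like shares 33.3%, 38.5% and 32.4% in the same libraries. The ependymal-like shares lay above the astrocyte-like ones before and after thinning, which left out the 41, 12 and 6 cells of these libraries with fewer UMIs. The plot of levels by class and library shows these steps for all 8 genes.

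**Figure D1:**
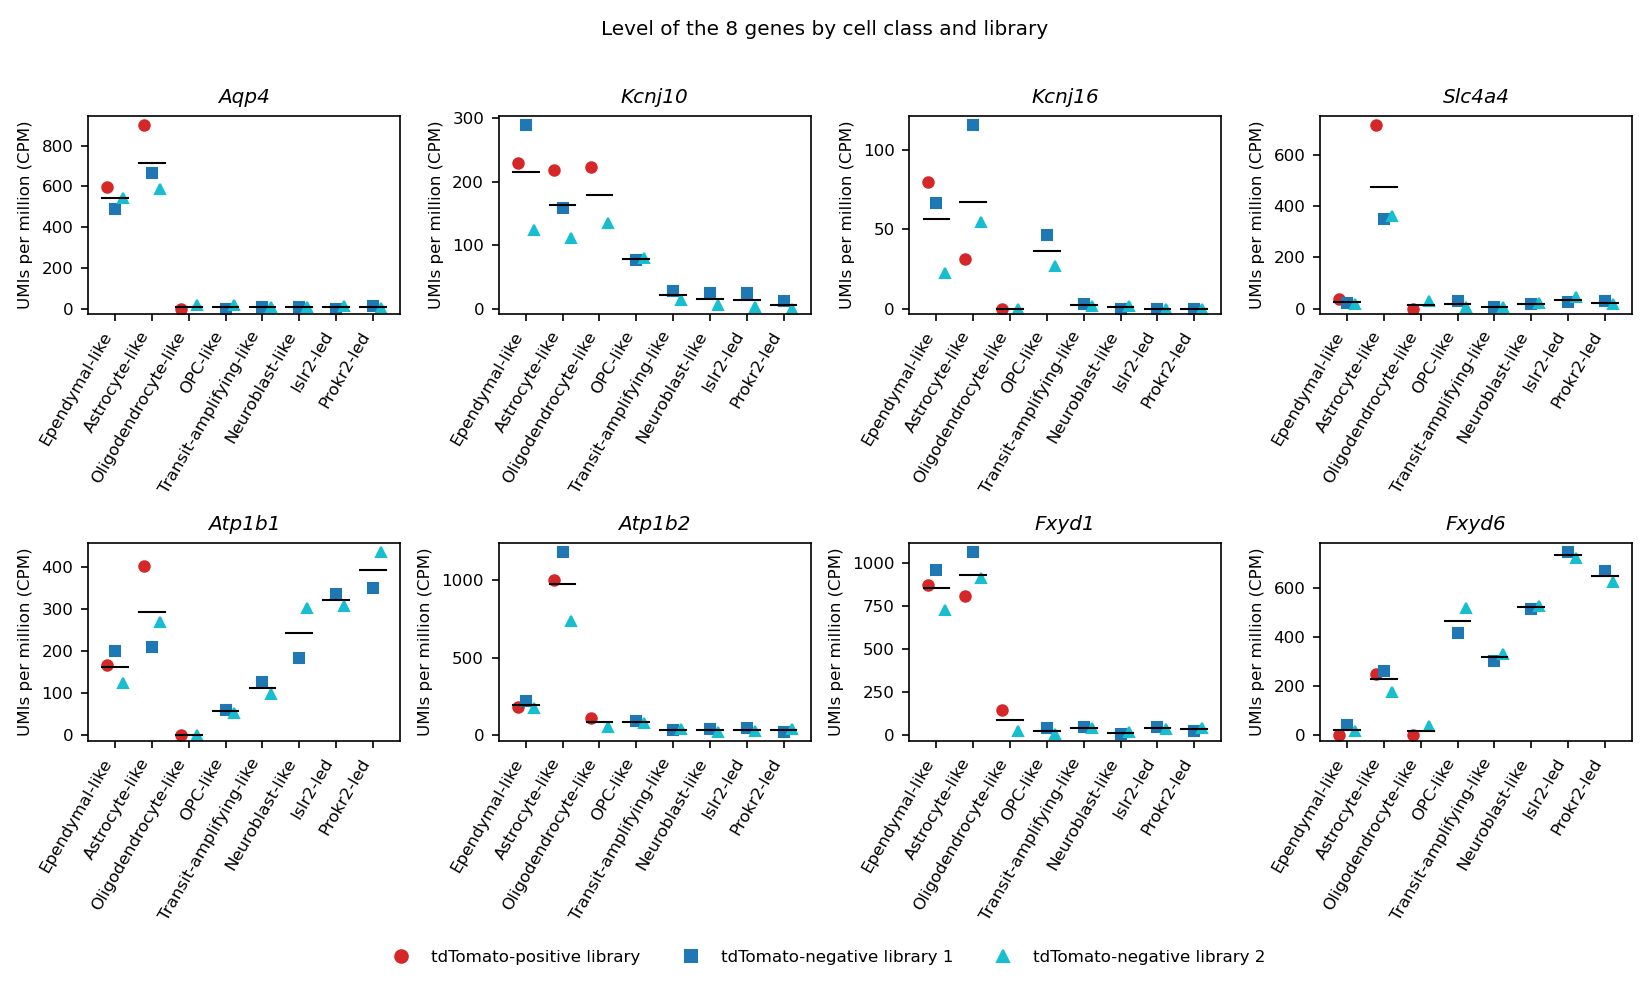
Level of each of the 8 genes (CPM, linear axis) in 8 cell classes, with 1 point per library that held at least 10 cells of the class and a bar at the mean over libraries. Aqp4 and Fxyd1 were high in ependymal-like and astrocyte-like cells, Slc4a4 and Atp1b2 stood highest in astrocyte-like cells, and Fxyd6 stood highest in the Islr2-led cluster at 721 and 745 CPM.

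Kcnj10 (ENSMUSG00000044708, chr1:172341210-172374085), the pore of the main glial potassium channel, was shared by 3 glial classes. It stood at 229, 289 and 124 CPM in ependymal-like cells and at 218, 158 and 111 CPM in astrocyte-like cells (tdTomato-positive, tdTomato-negative 1 and 2). Oligodendrocyte-like cells held 223 CPM (tdTomato-positive) and 134 CPM (tdTomato-negative 2). The ranges of the 3 classes overlapped, and in each class the lowest value was that of tdTomato-negative library 2. The difference of ependymal-like from astrocyte-like cells was 0.30 on the log2 scale (95% interval −0.30 to 0.91) and that of oligodendrocyte-like from astrocyte-like cells 0.07 (−0.77 to 0.92), neither called by edgeR (adjusted p = 0.531 and 0.955). Oligodendrocyte precursor-like cells held 77.0 and 79.8 CPM in the tdTomato-negative libraries, below every value of the 3 glial classes and above all neuronal-lineage sums. Kcnj10 was 4.10 ± 0.53 higher in ependymal-like and 3.79 ± 0.50 higher in astrocyte-like than in neuroblast-like cells on the log2 scale (edgeR adjusted p = 2.09e-13 and 9.35e-13).

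Kcnj16 (ENSMUSG00000051497, chr11:110968033-111027968), the partner that alters the gating of Kir4.1, was scarce in every class. In ependymal-like cells it stood at 79.9, 66.7 and 22.6 CPM (47 UMIs in the tdTomato-positive, 3 and 4 in the tdTomato-negative libraries), and in astrocyte-like cells at 31.1, 116 and 54.7 CPM (1, 11 and 30 UMIs). These ranges overlapped widely, and the ependymal-like minus astrocyte-like difference of −0.53 on the log2 scale (95% interval −1.51 to 0.44, edgeR adjusted p = 0.483) was not called. Neuroblast-like cells held 1 UMI of 701526, for a log2 ratio of pooled CPM of 5.45 for astrocyte-like over neuroblast-like cells (exact 95% interval 2.89 to 10.8) and 5.55 for ependymal-like over neuroblast-like cells (3.01 to 10.9), both called by edgeR (adjusted p = 2.31e-08 and 4.71e-05). Oligodendrocyte precursor-like cells held 46.2 and 26.6 CPM, a range that overlapped the astrocyte-like one.

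Kcnj16 was also counted as a share of both channels in the classes that shared Kcnj10. It made up 25.8%, 18.8% and 15.4% of the Kcnj10 plus Kcnj16 UMIs of ependymal-like cells and 12.5%, 42.3% and 33.0% of those of astrocyte-like cells, with ranges that overlapped. In oligodendrocyte-like cells 0 of 21 such UMIs were Kcnj16 (exact 95% limit 16.1%). Against astrocyte-like cells, where 42 of 675837 UMIs were Kcnj16, the 0 of 131358 in oligodendrocyte-like cells put Kcnj16 at least 2.72-fold lower, with a floor of 3 counts over the class (edgeR adjusted p = 0.00343). With DESeq2 in place of edgeR that call was lost (adjusted p = 0.0593). Single cells held UMIs of both channels in 11.5% of 235 ependymal-like cells, against 8.66% if the genes were detected independently, and in 2.86% of 280 astrocyte-like cells, against 3.13%. These shares pool libraries, take no account of depth differences between cells and carry no test. UMI levels of different genes can also differ by how well each transcript's 3′ end was captured, so shares between genes are compared across classes rather than read as protein ratios.

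Slc4a4 (ENSMUSG00000060961, chr5:88886818-89239653) stood out in astrocyte-like cells. It held 35.7, 22.2 and 16.9 CPM in ependymal-like cells (21, 1 and 3 UMIs) and 716, 348 and 359 CPM in astrocyte-like cells (tdTomato-positive, tdTomato-negative 1 and 2). Each astrocyte-like value lay above all ependymal-like ones. Slc4a4 was 16.3-fold lower in ependymal-like cells, a log2 change of −4.03 ± 0.37 (edgeR adjusted p = 1.27e-25). It was 4.21 ± 0.37 higher on the log2 scale in astrocyte-like than in neuroblast-like cells (edgeR adjusted p = 5.70e-28), where it stood at 16.1 and 20.8 CPM. Ependymal-like and neuroblast-like levels overlapped, and their log2 difference of 0.18 (95% interval −0.98 to 1.33, edgeR adjusted p = 0.846) was not called. The mean of 474 ± 209 CPM (SD, n = 3 libraries) in astrocyte-like cells was followed by 34.6 ± 14.9 CPM (n = 2) in the Islr2-led cluster, and from there down to transit-amplifying-like cells neighbours in the order overlapped.

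Of the beta subunits, Atp1b2 (ENSMUSG00000041329, chr11:69599736-69605942), which was first described as an adhesion molecule on glia, had the larger fitted fold between ependymal-like and astrocyte-like cells. Atp1b2 stood at 184, 222 and 175 CPM in ependymal-like cells and at 995, 1180.4 and 738 CPM in astrocyte-like cells (tdTomato-positive, tdTomato-negative 1 and 2). The lowest astrocyte-like value was over 3 times the highest ependymal-like one. Atp1b2 was 4.80-fold lower in ependymal-like cells, a log2 change of −2.26 ± 0.24 (edgeR adjusted p = 3.64e-20). Neuroblast-like cells held 40.1 and 24.3 CPM, and Atp1b2 was 2.73 ± 0.40 higher in ependymal-like and 5.00 ± 0.32 higher in astrocyte-like than in neuroblast-like cells on the log2 scale (edgeR adjusted p = 1.79e-10 and 7.63e-53).

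Atp1b1 (ENSMUSG00000026576, chr1:164437109-164458355), the beta subunit found in most tissues, stood highest in the Prokr2-led cluster and was not detected in oligodendrocyte-like cells. It stood at 167, 200.2 and 124 CPM in ependymal-like cells and at 404, 211 and 270 CPM in astrocyte-like cells (tdTomato-positive, tdTomato-negative 1 and 2). The highest ependymal-like value lay just under the lowest astrocyte-like one. Neuroblast-like cells held 185 and 303 CPM, the Islr2-led cluster 337 and 309 CPM and the Prokr2-led cluster 350.2 and 437 CPM in the tdTomato-negative libraries. These values lay above the transit-amplifying-like levels of 127 and 97.9 CPM. Atp1b1 was 1.96-fold lower in ependymal-like than in astrocyte-like cells, a log2 change of −0.97 ± 0.29 (edgeR adjusted p = 0.00458). That call was lost without tdTomato-negative library 1 (log2 change −0.98, adjusted p = 0.117), without tdTomato-negative library 2 (−0.65, adjusted p = 0.510) and without the count filter (−0.85, adjusted p = 0.114). The log2 difference of ependymal-like from neuroblast-like cells was −0.96 ± 0.31 (edgeR adjusted p = 0.00798), and this call was lost under 7 alternatives. It was −0.20 without tdTomato-negative library 2 (adjusted p = 0.918) and −1.19 without tdTomato-negative library 1 (0.0896). The other losses were without the count filter (adjusted p = 0.108), with DESeq2 (0.149), without the library block (0.0603), at clustering resolution 0.5 (0.0691) and with Scrublet calls removed (0.122). Astrocyte-like and neuroblast-like cells differed by 0.01 on the log2 scale (95% interval −0.48 to 0.50), which was not called (edgeR adjusted p = 0.998).

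The beta subunits were also set side by side within each class, as drawn in the plot of subunit shares. Atp1b2 made up 52.4%, 52.6% and 58.5% of the Atp1b1 plus Atp1b2 UMIs of ependymal-like cells and 71.1%, 84.8% and 73.2% of those of astrocyte-like cells. In every library the ependymal-like share was lower, with differences of −18.7, −32.2 and −14.7 percentage points and a mean of −21.9 ± 9.16 (SD, n = 3 libraries). An exact two-sided sign-flip permutation test gave p = 0.25, the smallest value that 3 libraries allow. The astrocyte-like shares pool clusters that differ. In tdTomato-negative library 2, Atp1b2 and Atp1b1 held 62 and 43 UMIs in Gfap-led cells and 343 and 105 in Slc7a10-led cells. Ependymal-like cells held 31 and 22 there. In tdTomato-negative library 1 the counts were 17 and 4 (Gfap-led), 95 and 16 (Slc7a10-led) and 10 and 9 (ependymal-like). The share was not tested by cluster. The Atp1b2 share was 17.9% and 7.41% in neuroblast-like cells and 20.3% and 28.6% in transit-amplifying-like cells, below every ependymal-like and astrocyte-like value.

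Oligodendrocyte-like cells also differed in their beta subunits. Their median mitochondrial share was 13.5% in the tdTomato-positive library, against 4.24% in tdTomato-negative library 2, and its part in these values was not tested. They held 0 Atp1b1 UMIs of 131358, against 181 of 675837 in astrocyte-like cells, so Atp1b1 was at least 11.7-fold lower at a floor of 3 counts over the class (edgeR adjusted p = 9.46e-12). Atp1b2 stood at 111 CPM (tdTomato-positive) and 57.5 CPM (tdTomato-negative 2), 13.6-fold lower than in astrocyte-like cells (edgeR adjusted p = 6.68e-18). Atp1b3, the remaining beta subunit of brain, stood at 582 ± 227 CPM (SD, n = 2) in oligodendrocyte-like cells, against 25.6 ± 22.5 CPM (n = 3) in astrocyte-like cells. The subunits were not tested against one another within the class. Atp1b3 was 3.52 ± 0.41 higher in oligodendrocyte-like than in astrocyte-like cells on the log2 scale (edgeR adjusted p = 3.19e-16). Other members were low in oligodendrocyte-like cells too, Kcnj10 excepted. Fxyd1 stood there at 148 and 28.7 CPM and Fxyd6 at 0 and 38.3 CPM, with log2 changes from astrocyte-like cells of −4.22 ± 0.43 and −2.81 ± 0.63 (edgeR adjusted p = 2.92e-20 and 0.000111), both lost without tdTomato-negative library 2 (adjusted p = 0.0552 and 0.234). Aqp4 held 2 UMIs and Slc4a4 3, log2 ratios to astrocyte-like cells of −5.33 (exact 95% interval −8.38 to −3.46) and −4.03 (−6.32 to −2.47). In ependymal-like cells Atp1b3 stood at 68.0, 0 and 73.4 CPM, and its log2 difference from astrocyte-like cells of 0.68 was not called (edgeR adjusted p = 0.317).

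**Figure D2:**
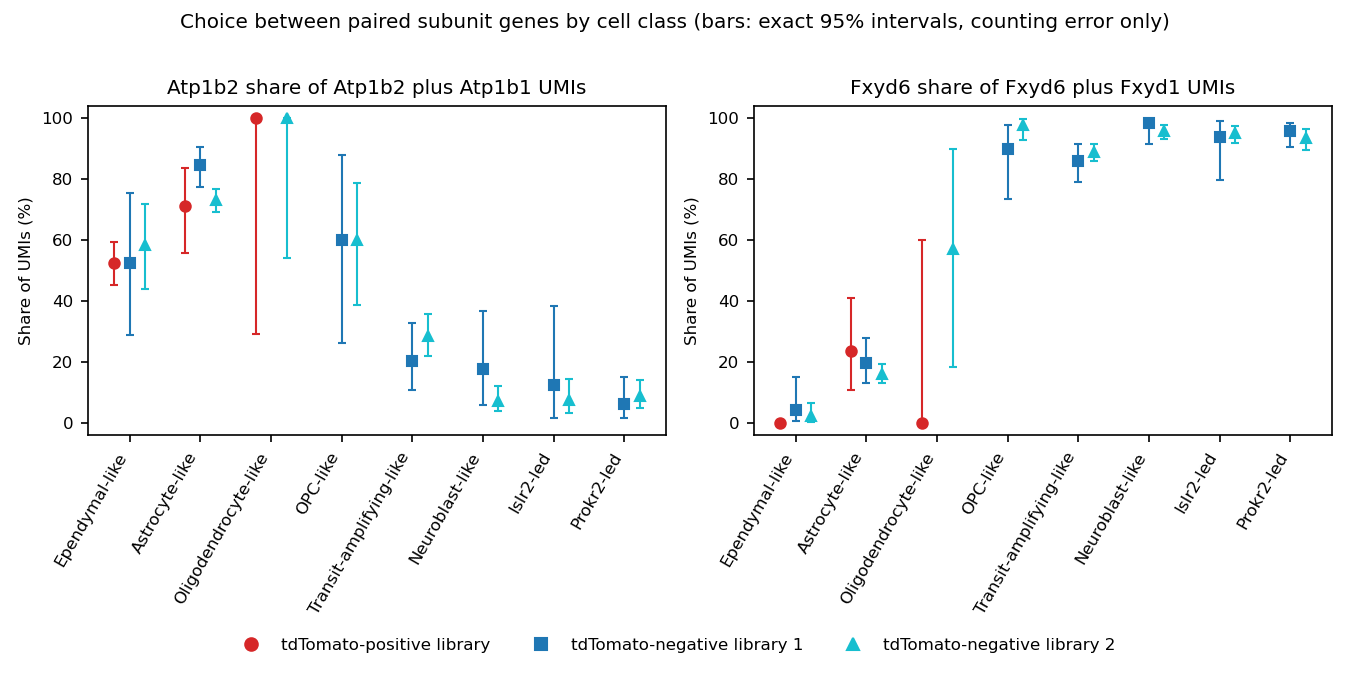
Share of Atp1b2 in Atp1b2 plus Atp1b1 UMIs and of Fxyd6 in Fxyd6 plus Fxyd1 UMIs (percent) by class and library, with exact 95% intervals that cover counting error only. The Fxyd6 share was 0.195% to 4.44% in ependymal-like cells and 95.9% to 98.5% in neuroblast-like cells.

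Fxyd1 (ENSMUSG00000036570, chr7:31051678-31057199), which encodes the pump regulator phospholemman, was the most abundant of the 8 genes in ependymal-like cells. It stood at 872, 957 and 729 CPM in ependymal-like cells and at 809, 1064 and 911 CPM in astrocyte-like cells (tdTomato-positive, tdTomato-negative 1 and 2), with 18 of the 26 UMIs behind the 809 CPM in 2 Gfap-led cells. The ranges overlapped, and the log2 difference of −0.21 (95% interval −0.60 to 0.17, edgeR adjusted p = 0.476) was not called. Without the tdTomato-positive library it was −0.46 and called (adjusted p = 0.0304), and it changed sign without either tdTomato-negative library, at 0.03 and 0.05. Neuroblast-like cells held 8.03 and 22.5 CPM, and Fxyd1 was 5.31 ± 0.36 higher in ependymal-like and 5.52 ± 0.34 higher in astrocyte-like than in neuroblast-like cells on the log2 scale (edgeR adjusted p = 5.30e-47 and 1.23e-56). At least 1 Fxyd1 UMI was seen in 81.9%, 75.0% and 82.6% of ependymal-like cells, against 2.56% and 5.29% of neuroblast-like cells.

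Fxyd6 (ENSMUSG00000066705, chr9:45370185-45396159), a pump regulator known from neurons, had nearly the opposite pattern. Ependymal-like cells held 1, 2 and 3 UMIs (1.70 CPM in the tdTomato-positive, 44.5 and 16.9 in the tdTomato-negative libraries), and astrocyte-like cells 8, 25 and 96 UMIs (249, 263 and 175 CPM). Every astrocyte-like value lay above every ependymal-like one. The Gfap-led cluster held 105 of these astrocyte-like UMIs, including all 8 of the tdTomato-positive library in 2 cells, and the Slc7a10-led cluster 24 (0, 42.6 and 51.1 CPM), a range that overlapped the ependymal-like one. The 12 neuroblast markers summed to 44.2, 512 and 463 CPM in ependymal-like cells and to 0, 597 and 567 CPM in Slc7a10-led cells. These sums, too, were lowest in the tdTomato-positive library, and RNA carried over from other cells was not tested. Over the whole astrocyte-like class Fxyd6 was 18.7-fold lower in ependymal-like cells, a log2 change of −4.22 ± 0.55 (edgeR adjusted p = 3.26e-13). Larger values were measured in transit-amplifying-like cells (303 and 332 CPM), oligodendrocyte precursor-like cells (416 and 516 CPM) and neuroblast-like cells (514 and 527 CPM). The Prokr2-led cluster held 666 and 624 CPM and the Islr2-led cluster 745 and 721 CPM, the highest of all classes. Among these, only neuroblast-like and oligodendrocyte precursor-like cells, neighbours in this order, had overlapping ranges.

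Against neuroblast-like cells, Fxyd6 was −5.45 ± 0.49 on the log2 scale in ependymal-like cells (edgeR adjusted p = 2.05e-26). In astrocyte-like cells it was 2.34-fold lower than in neuroblast-like cells, a log2 change of −1.23 ± 0.25 (edgeR adjusted p = 9.66e-06), and this call was lost without tdTomato-negative library 2 (−0.65, adjusted p = 0.585). As a share of Fxyd1 plus Fxyd6 UMIs, Fxyd6 was 0.195%, 4.44% and 2.27% in ependymal-like cells, 23.5%, 19.8% and 16.1% in astrocyte-like cells, 86.2% and 89.1% in transit-amplifying-like cells and 98.5% and 95.9% in neuroblast-like cells. These 4 ranges did not overlap one another. The astrocyte-like shares pool clusters that differ, with 105 Fxyd6 and 381 Fxyd1 UMIs in Gfap-led cells and 24 and 246 in Slc7a10-led cells. In the tdTomato-positive library all 8 astrocyte-like Fxyd6 UMIs came from 2 Gfap-led cells. Its 14 Slc7a10-led cells thus held no Fxyd6 UMI. Most of the 26 astrocyte-like Fxyd1 UMIs there also lay in the 2 Gfap-led cells. The share in those 14 cells, 0%, rests on too few UMIs to be placed against the ependymal-like range. The share of oligodendrocyte precursor-like cells, 90.0% and 98.0%, overlapped that of neuroblast-like cells.

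Counted over the 8 genes, 4 were called between ependymal-like and astrocyte-like cells and all 4 were lower in ependymal-like cells, while 29.3% of the 3689 genes tested were called. Their median log2 difference was −0.75, against 0.01 over all genes tested. Between ependymal-like and neuroblast-like cells 5 were higher and 2 lower, with 39.5% of tested genes called and medians of 3.42 for the 8 and 0.03 for all. Between astrocyte-like and neuroblast-like cells 6 were higher and 1 lower, with 38.6% called and medians of 4.60 and 0.00. Between astrocyte-like and transit-amplifying-like cells 7 were higher and none lower, with 45.8% called and medians of 4.49 and −0.04, and Fxyd6 at −0.55 was not called (edgeR adjusted p = 0.0585). Fxyd6 was called lower with sums of at least 20 cells (−0.67, adjusted p = 0.000589), with the stricter cell filter (−0.72, 0.00104) and without the tdTomato-positive library (−0.57, 0.00967), and it was 0.07 without tdTomato-negative library 2. Between oligodendrocyte-like and astrocyte-like cells 7 were lower and Kcnj10 alone was not called, with 18.2% called, and without tdTomato-negative library 2 the count was 4. The share of all genes called without that library is not given. Clusters were formed without these 8 genes, but from cells of the same libraries and from genes that vary with them, so the calls describe the classes. The ependymal-like, astrocyte-like and neuroblast-like comparisons share classes and are not independent.

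**Figure D3:**
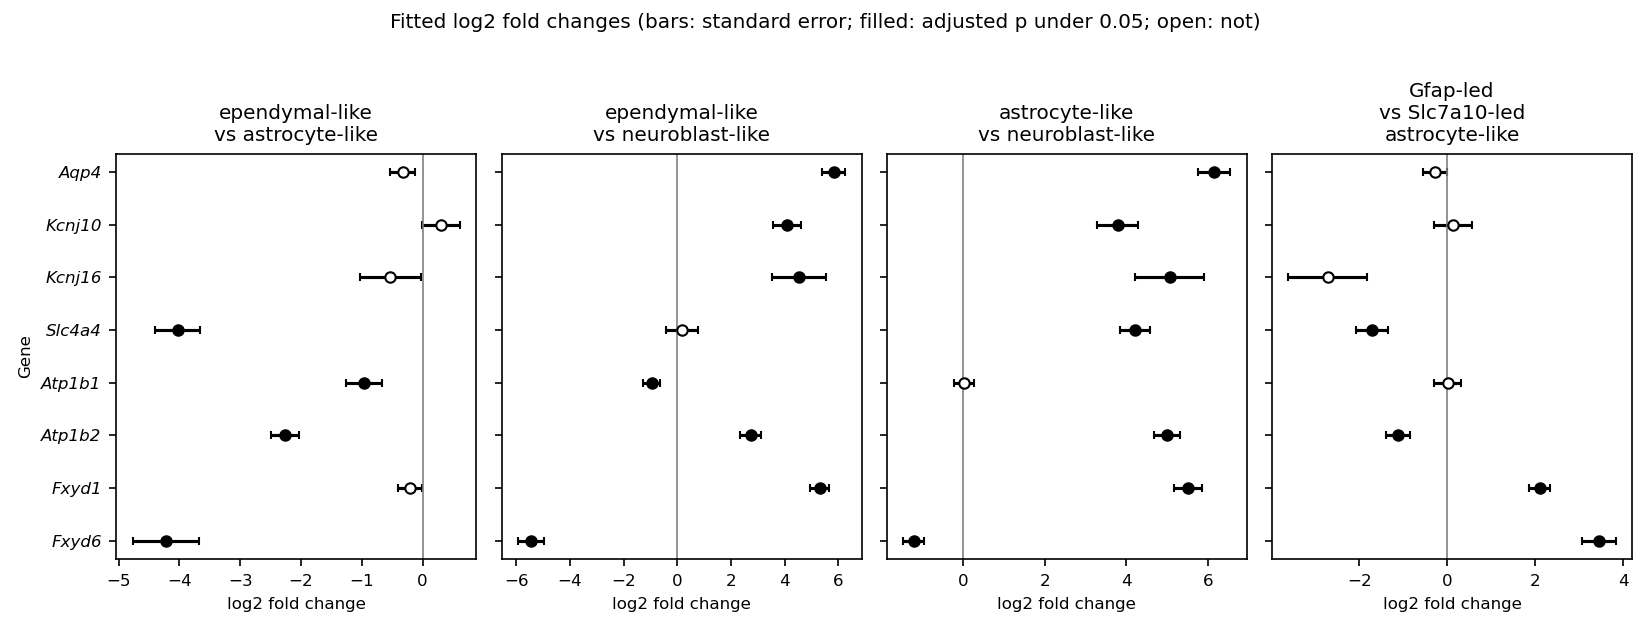
Fitted log2 fold changes of the 8 genes (points) with their standard errors (bars) in 4 comparisons of classes, with filled points for adjusted p under 0.05 and open points otherwise. Aqp4, Kcnj10, Kcnj16 and Fxyd1 sit between −0.53 and 0.30 for ependymal-like against astrocyte-like cells and between 3.79 and 6.15 for astrocyte-like against neuroblast-like cells, where Fxyd6 lies at −1.23.

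The astrocyte-like class was not uniform in these genes. The comparison of its Gfap-led cluster with its Slc7a10-led cluster was added after the data were seen. The Gfap-led cluster held 13 and 61 cells in tdTomato-negative libraries 1 and 2, and the Slc7a10-led cluster 14, 30 and 160 (tdTomato-positive, tdTomato-negative 1 and 2). Fxyd1 stood at 2614 and 2167 CPM in the Gfap-led cluster, against 305, 526 and 489 CPM in the Slc7a10-led cluster, and was 4.29-fold higher (log2 change 2.10 ± 0.24, edgeR adjusted p = 3.65e-16). Fxyd6 stood at 899 and 544 CPM in the Gfap-led cluster, against 0, 42.6 and 51.1 CPM, and was 10.9-fold higher (log2 change 3.45 ± 0.38, edgeR adjusted p = 1.78e-16). Neither gene's groups overlapped. The Gfap-led level of Fxyd6 rested on 22 and 75 UMIs in tdTomato-negative libraries 1 and 2. It lay above the neuroblast-like 514 and 527 CPM in these libraries, by little in library 2, and this order was not tested. Both FXYD transcripts were seen together in 48.7% of the 76 Gfap-led cells, against 47.4% if detected independently. In the 204 Slc7a10-led cells these shares were 5.88% and 5.35%. The independent shares take no account of depth differences between cells.

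Slc4a4 and Atp1b2 went the other way between these clusters. Slc4a4 stood at 245 and 123 CPM in the Gfap-led cluster, against 802, 384 and 438 CPM in the Slc7a10-led cluster, with no overlap, a log2 change of −1.71 ± 0.37 (edgeR adjusted p = 0.000336). Atp1b2 stood at 694 and 449 CPM, against 1069, 1349 and 835 CPM, also with no overlap, a log2 change of −1.12 ± 0.26 (edgeR adjusted p = 0.00144). These 4 of the 8 genes were called where 3.50% of the 3743 genes tested were. Without tdTomato-negative library 1 the count was 2, and without tdTomato-negative library 2, which held most of the cells, it was 0. The shares of all genes called with a library left out are not given. The log2 changes without tdTomato-negative library 2 were 2.23 for Fxyd1, 4.06 for Fxyd6, −1.18 for Atp1b2 and −0.97 for Slc4a4. Kcnj16 held 2 UMIs in the Gfap-led cluster, against 40 in the Slc7a10-led cluster, a log2 ratio of −2.68 (exact 95% interval −5.77 to −0.73), and was not called (edgeR adjusted p = 0.0563), though it was with RLE scaling (adjusted p = 0.0243) and with odd-digit clustering (0.0212). Aqp4 (log2 difference −0.27), Kcnj10 (0.12) and Atp1b1 (0.00) were not called, and the sign of Kcnj10 and of Atp1b1 changed with another scaling. Although its level was not called, Aqp4 was seen in 32.9% of 76 Gfap-led cells, against 67.6% of 204 Slc7a10-led cells. After thinning to 1000 UMIs per cell these shares were 27.4% and 35.5%, and at 2000 UMIs 26.7% and 66.4%. They pool libraries and carry no test.

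**Figure D4:**
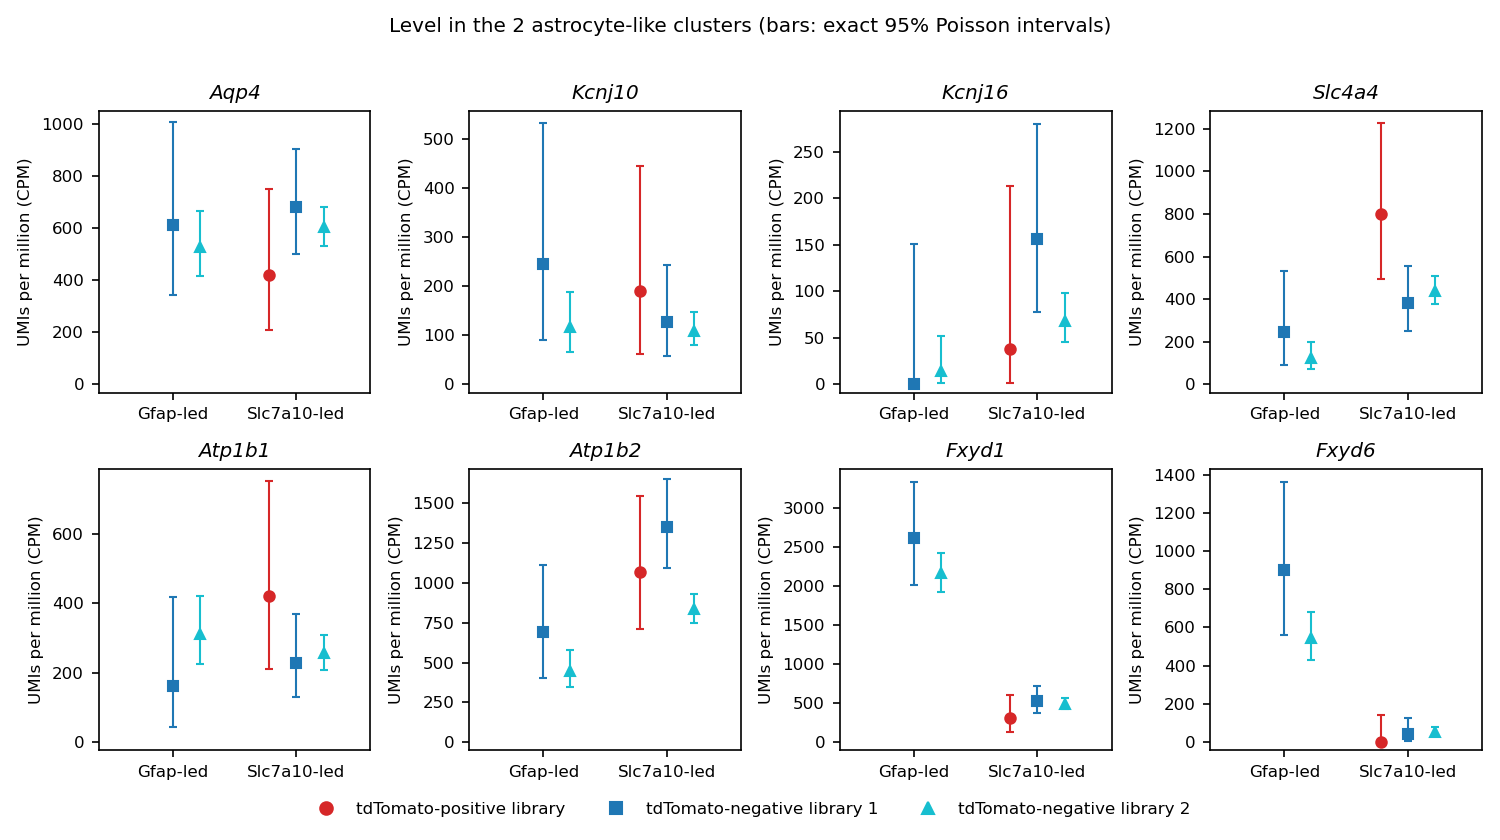
Level of each of the 8 genes (CPM, linear axes) in the Gfap-led and Slc7a10-led clusters of astrocyte-like cells, with 1 point per library that held at least 10 cells and exact 95% Poisson intervals. Fxyd1 and Fxyd6 are higher and Slc4a4 and Atp1b2 lower in the Gfap-led cluster, with no overlap between the clusters' points.

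Ependymal-like levels can be set beside each astrocyte-like cluster. Fxyd1 in ependymal-like cells (729 to 957 CPM) lay below the Gfap-led and above the Slc7a10-led levels. Fxyd6 in ependymal-like cells (1.70 to 44.5 CPM) overlapped the Slc7a10-led levels (0 to 51.1 CPM). Atp1b2 in ependymal-like cells (175 to 222 CPM) lay below both. These relations are given as levels, and ependymal-like cells were not tested against either cluster.

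The sorting gates were compared next, first over all kept cells. Aqp4 stood at 533 CPM in the tdTomato-positive library, against 98.2 and 123 CPM in the tdTomato-negative libraries, a 4.90-fold higher level (log2 change 2.29 ± 0.30, edgeR adjusted p = 8.68e-13). Kcnj10 stood at 207, against 54.0 and 37.6 CPM (log2 change 2.28 ± 0.31, edgeR adjusted p = 1.99e-12). Fxyd1 stood at 762, against 188 and 203 CPM (log2 change 2.01 ± 0.30, edgeR adjusted p = 4.73e-10). In all these genes the tdTomato-positive library lay well above both others, as did Kcnj16 at 66.6, against 19.4 and 11.7 CPM (log2 change 2.27 ± 0.39, edgeR adjusted p = 6.01e-08).

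Fxyd6 was the 1 gene of the 8 called lower. It stood at 22.2 CPM in the tdTomato-positive library, against 407 and 387 CPM in the tdTomato-negative libraries (log2 change −4.10 ± 0.45, edgeR adjusted p = 4.05e-18). Atp1b2 at 217, against 163 and 152 CPM, Atp1b1 at 157, against 192 and 205 CPM, and Slc4a4 at 61.1, against 50.7 and 67.5 CPM, were not called (edgeR adjusted p = 0.174, 0.484 and 0.929). The 5 calls compare with 41.8% of 10944 genes called, and the fit rests on 1 residual degree of freedom, with the lone tdTomato-positive library assumed to vary like the others. The ependymal-like share of cells was 70.2% in the tdTomato-positive library, against 4.69% and 4.10% in the tdTomato-negative libraries, and in such sums fewer cells of a type and less RNA per cell cannot be told apart.

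Within ependymal-like cells alone no member was called between the gates. The tdTomato-positive library lay between the tdTomato-negative libraries for Kcnj10, Atp1b1, Atp1b2 and Fxyd1, above both for Aqp4, Kcnj16 and Slc4a4, and below both for Fxyd6. None of the 6 genes that passed the count filter was called by edgeR or by DESeq2, with 0.245% of 2042 genes called and 78 genes at an unadjusted p under 0.05. Among these 6 the largest difference was that of Kcnj16, 79.9 CPM in the tdTomato-positive library, against 66.7 and 22.6 CPM (log2 difference 1.38, 95% interval 0.13 to 2.64, edgeR adjusted p = 0.998). The intervals of Aqp4 (−0.29 to 0.86) and Fxyd1 (−0.37 to 0.79) still allow changes of over 1.5-fold. Slc4a4 and Fxyd6, with 25 and 6 UMIs in these cells, did not pass the filter. The median mitochondrial share of ependymal-like cells was 9.11% in the tdTomato-positive library, against 6.32% and 7.25% in the tdTomato-negative libraries, and its part in these values was not tested.

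**Figure D5:**
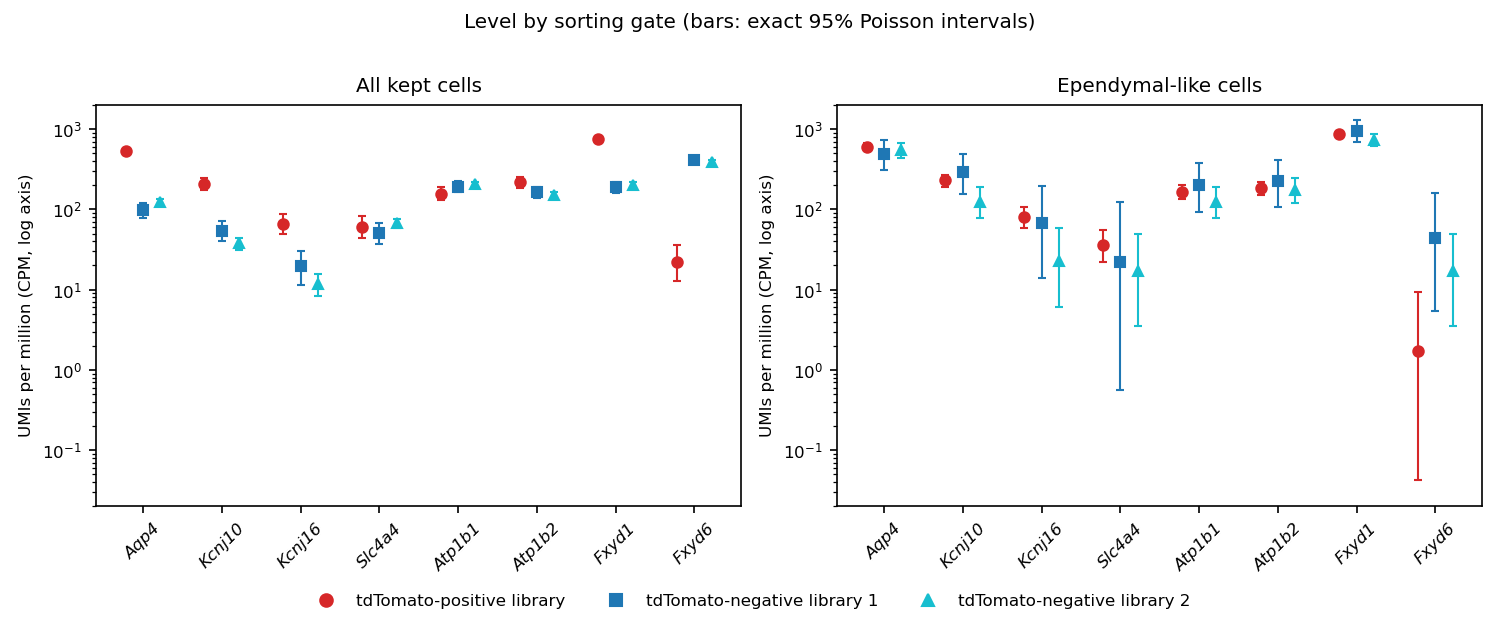
Level of the 8 genes (CPM, log axis) by library over all kept cells (left) and over ependymal-like cells (right), with exact 95% Poisson intervals. Over all cells the tdTomato-positive points for Aqp4, Kcnj10, Kcnj16 and Fxyd1 lie above both tdTomato-negative points and Fxyd6 lies below, while over ependymal-like cells the 3 intervals overlap for Aqp4 and Fxyd1 and the tdTomato-positive interval lies above that of tdTomato-negative library 2 for Kcnj10 and Kcnj16.

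Other genes of the same pathways were counted from lists. Of 8 genes listed with the membrane anchoring of Aqp4 and Kcnj10, 7 were higher in astrocyte-like than in neuroblast-like cells and none lower, where 38.6% of all genes tested were called. The list covers the dystrophin complex, Mlc1 and Hepacam. Mlc1 (log2 change 5.26) and Hepacam (4.82) led it. Between ependymal-like and astrocyte-like cells 2 of the 8 were called, both lower in ependymal-like cells, a share no higher than the 29.3% over all genes tested. Dtna, a dystrobrevin, stood at 59.0 ± 19.8 CPM in ependymal-like cells, against 394 ± 172 CPM in astrocyte-like cells (SD, n = 3 each, log2 change −2.60, edgeR adjusted p = 4.26e-14). Hepacam, which escorts Mlc1, changed by −0.67 (edgeR adjusted p = 0.0216). Over all cells 6 of the 8 listed genes were higher in the tdTomato-positive library (41.8% of all genes tested were called), among them Utrn (2.49) and Mlc1 (2.10).

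Of 14 other inward rectifier and tandem-pore potassium channels 2 could be tested between classes. Kcnk1 stood at 18.5 ± 16.0 CPM in ependymal-like cells, against 503 ± 211 CPM in astrocyte-like cells (SD, n = 3 each), a log2 change of −4.32 (edgeR adjusted p = 1.66e-28). Kcnk2 stood at 173 ± 27.2 CPM in ependymal-like cells, against 57.8 ± 37.1 CPM in astrocyte-like cells, a log2 change of 0.95 (edgeR adjusted p = 0.0233). Kcnk1 and Kcnk2 were thus called in opposite directions. Kcnk1 was also 5.56 higher on the log2 scale in astrocyte-like than in neuroblast-like cells (edgeR adjusted p = 1.00e-35). Over all cells, Kcnk2 was 1.21 higher on the log2 scale in the tdTomato-positive library (edgeR adjusted p = 0.000364). Kcnk10 was called lower, with 1 UMI in the tdTomato-positive library, against 12 and 67 UMIs in the tdTomato-negative libraries (edgeR adjusted p = 0.00291).

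Of 19 other bicarbonate, chloride and proton transport genes 9 were tested, and 2 were lower and none higher in ependymal-like than in astrocyte-like cells, against 29.3% called over all genes tested. Car2, a carbonic anhydrase that supplies bicarbonate, stood at 26.3 ± 19.5 CPM in ependymal-like cells, against 349 ± 107 CPM in astrocyte-like cells (log2 change −3.87, edgeR adjusted p = 4.42e-25). Slc9a3r1, a scaffold of transporters, was −1.25 (edgeR adjusted p = 8.15e-05). Both were higher in astrocyte-like than in neuroblast-like cells, by 4.00 and 4.57 on the log2 scale. Over all cells 6 of 13 tested were higher and 1 lower in the tdTomato-positive library, against 41.8% called over all genes tested. Car4, a carbonic anhydrase on the cell surface, held 31 UMIs in the tdTomato-positive library, against 0 and 2 in the tdTomato-negative libraries (edgeR adjusted p = 6.80e-13). Slc12a7 was 2.18 higher and Slc4a7 changed by −2.25 on the log2 scale (edgeR adjusted p = 0.00701 and 0.00199). In oligodendrocyte-like cells Car2 stood at 5486 ± 518 CPM (SD, n = 2), 3.50 higher on the log2 scale than in astrocyte-like cells (edgeR adjusted p = 2.40e-43).

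Of 11 other aquaporin and volume regulation genes 4 were tested between classes. Lrrc8a, a subunit of the volume-regulated anion channel, was −2.53 in ependymal-like against astrocyte-like cells (edgeR adjusted p = 2.63e-05) and 1.97 higher in astrocyte-like than in neuroblast-like cells (edgeR adjusted p = 1.20e-05). Aqp11 was the aquaporin of this list that could be tested and was not called in either comparison (edgeR adjusted p = 0.847 and 0.186). Over all cells Lrrc8c was higher (1.62) and Lrrc8a lower (−1.07) in the tdTomato-positive library.

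Of the other pump regulators and beta subunits, Atp1b3 was not called between astrocyte-like and neuroblast-like cells (log2 difference 0.30, edgeR adjusted p = 0.691). Over all cells Atp1b3 was 0.80 higher on the log2 scale in the tdTomato-positive library (edgeR adjusted p = 0.0337). Fxyd5, another FXYD family member, held 21 UMIs in the tdTomato-positive library, against 1 and 0 in the tdTomato-negative libraries. It was called higher over all cells (edgeR adjusted p = 3.68e-08). Ependymal-like cells held at most 3.40 CPM of Fxyd5 in any library, against 29.2 CPM over all kept cells of the tdTomato-positive library. Astrocyte-like and oligodendrocyte-like cells held 0 CPM. The call is thus not an ependymal-like level, and which cells held most of these UMIs was not tested.

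The genes whose levels ran most like each of the 8 were sought among 7582 genes. Pearson's r of log2(CPM + 10) was taken over the 18 sums of library and class, which leave out the Islr2-led cluster. Aqp4 was most like Phkg1 (r = 0.949), Cpe (0.944) and Maob (0.943), and Fxyd1 like Plcd4 (0.948), Slc7a2 (0.936) and Mlc1 (0.933). Slc4a4 was most like Gjb6 (0.942), Slc6a11 (0.939) and Oaf (0.924), and Atp1b2 like Sfxn5 (0.947), Ttyh1 (0.937) and Cyp4f15 (0.927). Kcnj10 was most like Sema6d (0.939), Scd2 (0.926) and Ddt (0.906), and Kcnj16 like Lppos, Rfx4 and Npas3 (0.908 each). Fxyd6 was most like AI854517 (0.923), Ppp1r14b (0.916) and Zfp608 (0.910), and Atp1b1 had the weakest partners, Sox1 (0.877), Topors (0.875) and Ccl27a (0.873). The sums share libraries and depth, so these values are descriptions, and 6 of the 24 partners stayed in the top 3 when 1 CPM was added in place of 10.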

How the data were processed

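Raw UMI counts per gene and barcode, 1 matrix per library, were used as deposited. The submitters' processing notes list Seurat (1.4.0.15), STAR and Cell Ranger as tools and GRCm38.p5 and mm10 as builds. What each was used for, and how cells were called, was not given in the sources used here.

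From here on values were computed from the deposited counts. Cells were clustered together in scanpy 1.11.5 (1000 variable genes, 20 components, 15 neighbours, Leiden resolution 1.0, seed 1), on genes with an even last Ensembl digit plus 141 markers and without the 8 genes and the 63 pathway genes. A cluster took the name of the list with the most markers among its 10 leading genes if 3 or more markers of that list were at least 2-fold higher in it. No doublets were removed, and Scrublet, tried as an alternative, called 9, 2 and 3 cells. In the largest library that is 0.268%, a share too small to rely on.

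Counts were summed per library and class (at least 10 cells), which gave 18 sums. The Islr2-led cluster was left out of these sums, and so of the fits of classes and of the search for like genes. The sums were tested in edgeR 4.0.16 (R 4.3.3) with the quasi-likelihood test, TMM scaling, filterByExpr and library as a block (7 residual degrees of freedom). Benjamini-Hochberg adjustment was over all genes tested. Classes of 1 library are paired by construction. The gates used 3 sums without a block. Standard errors are the log2 change over the square root of F, and 95% intervals follow from the normal distribution. The scripts were tested on simulated data. Intervals of shares are exact (Clopper-Pearson), those of counts exact Poisson, and both, like floors of 3 counts, cover counting error only. GRCm38 positions come from GENCODE, promoters from RefSeq.

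All 8 genes are named in each comparison, together with the 3 most like genes per gene, other pump genes, and up to 3 called genes per list with the largest change. Some results under this rule are not reported here. The genes, lists and motifs were chosen with earlier results of these data known. Alternatives were RLE scaling, no count filter, DESeq2 1.42.0, no library block, larger sums, a stricter cell filter (500 genes, 10% mitochondrial), odd-digit genes, resolutions 0.5 and 2.0, Scrublet removal, other thinning depths and leaving out each library.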

Additional observations from a re-analysis of the deposited data

Results flagged for a closer look

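Kcnj16 was higher in ependymal-like than in astrocyte-like cells in the tdTomato-positive library (79.9 against 31.1 CPM) and lower in both tdTomato-negative libraries (66.7 against 116 CPM and 22.6 against 54.7 CPM). The difference between the gates was 2.68 on the log2 scale (edgeR adjusted p = 0.669, 1 residual degree of freedom) and was not called. The tdTomato-positive astrocyte-like level rests on 1 UMI.

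Fxyd1 had the same kind of split, 872 against 809 CPM in the tdTomato-positive library and 957 against 1064 and 729 against 911 CPM in the tdTomato-negative libraries. Of the 26 UMIs behind the 809 CPM, 18 came from 2 Gfap-led cells, and the 14 Slc7a10-led cells of that library stood at 305 CPM. The difference between the gates was 0.65 on the log2 scale (edgeR adjusted p = 0.669) and was not called.

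Atp1b2 held 9 UMIs in the 8 mural-like cells, all from the tdTomato-positive library. These cells entered no comparison of classes but are part of the sum over all kept cells, where that library held 156 Atp1b2 UMIs. They lay in 7 of the 8 cells, a level of 1138 CPM (exact 95% interval 520.2 to 2160). Aqp4, Kcnj16, Slc4a4, Atp1b1 and Fxyd6 held 0 UMIs in those cells.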

How the results depend on the processing

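Of 661 recomputed log2 changes, 603 kept their direction and their side of the threshold. With 1 library left out, the count of called genes ran from 3 to 5 for ependymal-like against astrocyte-like, 5 to 7 for either against neuroblast-like, 5 to 8 for astrocyte-like against transit-amplifying-like, 4 to 7 for oligodendrocyte-like against astrocyte-like and 0 to 2 for Gfap-led against Slc7a10-led cells. The Atp1b2 share difference ran from −25.5 to −16.7. Without the library block (no replicate block), 4, 6, 7, 7, 7 and 4 genes were called in the 6 comparisons of classes, and Atp1b1 was lost against neuroblast-like cells (adjusted p = 0.0603). The shares of all genes tested that were called under these settings are not given. A call lost by the 8 genes thus cannot be set against losses over all genes. For the gates alone, no paired analysis was possible because they set 1 library against 2. RLE scaling moved the median of all genes by 0.16 (against neuroblast-like), 0.23 (transit-amplifying-like), 0.14 (oligodendrocyte-like) and −0.16 (Gfap-led).

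These values changed sign, and the cause was not tested. Fxyd1, ependymal-like against astrocyte-like, was 0.036 with Scrublet calls removed and −0.46 to 0.054 with a library left out. Slc4a4, ependymal-like against neuroblast-like, was −0.25 with sums of at least 20 cells, −0.13 with the stricter cell filter, −0.045 at resolution 2.0 and −0.21 to 0.46 with a library left out. Atp1b1, astrocyte-like against neuroblast-like, was −0.056 without the count filter, −0.033 with larger sums, −0.36 with stricter cells, −0.12 with odd-digit clustering, −0.013 at resolution 2.0 and −0.21 to 0.45 with a library left out. Fxyd6, astrocyte-like against transit-amplifying-like, ran from −0.73 to 0.072. Kcnj10, oligodendrocyte-like against astrocyte-like, was −0.36 at resolution 0.5. Slc4a4 between gates over all cells was −0.077 without the filter, −0.16 with stricter cells and −0.15 without tdTomato-negative library 1. Between gates in ependymal-like cells, Kcnj10 was −0.19, Atp1b1 −0.12 and Atp1b2 −0.13 without tdTomato-negative library 2, and Atp1b2 was −0.010 with DESeq2. In Gfap-led cells Kcnj10 was −0.041 with RLE, −0.085 with odd-digit clustering and −0.078 to 0.51 with a library left out, and Atp1b1 was −0.15 with RLE, −0.045 without the filter, −0.23 with DESeq2, −0.092 without the block, −0.29 with odd-digit clustering and −0.94 to 0.089 with a library left out.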

Other observations

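Within the oligodendrocyte precursor-like class, Fxyd6 differed between clusters. It stood at 674 and 711 CPM in the Pdgfra-led cluster of tdTomato-negative libraries 1 and 2 (12 and 38 cells), and at 198 and 206 CPM in the 9530059O14Rik-led cluster (7 and 12 cells), where Gpr17 and Bmp4 were also among the leading genes. Oligodendrocyte-like cells held 0 and 38.3 CPM (tdTomato-positive, tdTomato-negative 2). Kcnj10 stood at 101 and 60.7 CPM in the Pdgfra-led cluster and at 56.7 and 110 CPM in the 9530059O14Rik-led cluster. These values were chosen after they were seen and were not tested.

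Endothelial-like cells (20, all in the tdTomato-positive library, median 1072 UMIs) held 3 Aqp4 UMIs in 2 cells, and microglia-like cells (14) held none.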
